A study of Mus musculus with 16 samples.

Results

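The heat shock response and the unfolded protein response of the endoplasmic reticulum (ER) were followed as 40 named genes among 55385 Ensembl gene identifiers counted in mouse dorsal hippocampus. The genes were taken by symbol from a list in 2 arms, 18 chaperones and regulators of the cytosol and mitochondria and 22 chaperones, folding enzymes and signalling genes of the ER. Of these, 39 had enough counts to be tested, 18 of 18 in the cytosolic arm and 21 of 22 in the ER arm. Trib3, a pseudokinase of the ER stress pathway, had 3 to 10 estimated counts per library and was not tested.

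Mice received a recombinant adeno-associated virus (rAAV) in the dorsal hippocampus that carried exogenous Dnmt3a2, a shorter form of the DNA methyltransferase Dnmt3a, or GFP as the control. All groups were trained in contextual fear conditioning 3 weeks later, and tissue was taken 1 day or 5 days after training, which gave 4 groups of 4 bulk RNA libraries. Control at 1 day and at 5 days therefore carry virus, GFP and training, and no untrained or uninjected group was analysed here. Strain, age, sex, the promoter of the virus and the cells it reached were not given in sources used here. Whether each library is a separate animal is not in the labels, so p-values measure the spread between these libraries, which may be technical.

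Cells answer misfolded protein in the cytosol by releasing the transcription factor HSF1 from chaperones, and HSF1 then raises the transcription of HSP70, HSP90, HSP110, small heat shock proteins and J proteins. In the ER, unfolded protein draws the HSP70 chaperone BiP (Hspa5) away from 3 sensors: ATF6, which is cleaved to a transcription factor; IRE1 (Ern1), which splices Xbp1 mRNA; and PERK (Eif2ak3), which slows translation and favours ATF4. ATF6 and spliced XBP1 raise ER chaperones, and ATF4 raises Ddit3 and Trib3. Neurons use both systems for the proteins they make and secrete, and chaperone transcripts are present in the hippocampus without applied stress.

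Promoter windows are shown here for some members, picked because they hold an element searched for. Each of the longer elements searched was found in some members of 1 arm and in no matched member of the other. RefSeq windows of GRCm38.p6, from 250 bases before to 50 bases after a gene's start, were matched by symbol for 33 of the 40 members. No window was found for Hsf1, Hsp90aa1, Hsp90ab1, Hspa8, Atf6, Hyou1 or Manf. The ER stress element was searched as CCAAT, any 9 bases and CCACG, on either strand. It was found in 7 of 19 matched ER members (Calr, Canx, Creld2, Dnajc3, Hsp90b1, Hspa5 and Pdia6), in 0 of 14 cytosolic members and in 0.137% of all 27025 genes. Capitals mark it in the 4 windows that follow, chr2:34771840-34772139 on the plus strand, chr8:84846882-84847181 on the minus strand, chr12:17266339-17266638 on the plus strand and chr14:118937682-118937981 on the plus strand.
Hspa5: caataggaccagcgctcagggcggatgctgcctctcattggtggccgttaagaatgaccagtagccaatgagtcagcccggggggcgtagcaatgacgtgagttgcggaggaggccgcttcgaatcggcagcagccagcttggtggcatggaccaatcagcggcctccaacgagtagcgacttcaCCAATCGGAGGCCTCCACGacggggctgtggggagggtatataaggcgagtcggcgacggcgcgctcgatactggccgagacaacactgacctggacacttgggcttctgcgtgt
Calr: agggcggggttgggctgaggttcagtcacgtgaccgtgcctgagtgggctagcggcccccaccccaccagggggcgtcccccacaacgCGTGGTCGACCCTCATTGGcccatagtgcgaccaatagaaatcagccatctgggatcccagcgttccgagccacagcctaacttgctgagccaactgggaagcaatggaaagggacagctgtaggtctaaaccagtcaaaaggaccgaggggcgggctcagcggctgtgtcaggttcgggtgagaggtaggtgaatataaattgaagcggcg
Pdia6: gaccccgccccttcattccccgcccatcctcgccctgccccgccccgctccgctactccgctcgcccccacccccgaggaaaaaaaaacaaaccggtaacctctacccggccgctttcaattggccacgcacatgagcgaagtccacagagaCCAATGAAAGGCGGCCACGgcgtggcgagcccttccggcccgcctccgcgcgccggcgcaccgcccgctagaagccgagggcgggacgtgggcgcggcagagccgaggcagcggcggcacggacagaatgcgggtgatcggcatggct
Dnajc3: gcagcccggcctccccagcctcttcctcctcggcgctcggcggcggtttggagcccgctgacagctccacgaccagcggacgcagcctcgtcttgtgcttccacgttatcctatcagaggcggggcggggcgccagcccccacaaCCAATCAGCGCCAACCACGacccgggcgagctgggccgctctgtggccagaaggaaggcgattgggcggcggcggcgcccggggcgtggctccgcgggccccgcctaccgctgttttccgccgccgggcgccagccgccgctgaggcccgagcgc
In Calr the element lies on the opposite strand, so the capitals read in reverse complement.

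The heat shock element was searched as 3 alternating units, GAA, 2 bases, TTC, 2 bases and GAA or its reverse complement. It was found in 4 of 14 matched cytosolic members (Chordc1, Hspd1, Hspe1 and Hsph1), in 0 of 19 ER members and in 0.662% of all genes. Hspd1 and Hspe1 start back to back, and their windows overlap, so they share the same element. The shorter form with 2 units, GAANNTTC or TTCNNGAA, overlaps the longer one and was found in 10 of 14 cytosolic members, in 1 of 19 ER members (Eif2ak3) and in 17.0% of all genes. Capitals mark the longer element in Hsph1 (chr5:149636266-149636565, minus strand) and Chordc1 (chr9:18292017-18292316, plus strand), where 3 overlapping matches run together, and the shorter one in Hspb1 (chr5:135887669-135887968, plus strand).
Hsph1: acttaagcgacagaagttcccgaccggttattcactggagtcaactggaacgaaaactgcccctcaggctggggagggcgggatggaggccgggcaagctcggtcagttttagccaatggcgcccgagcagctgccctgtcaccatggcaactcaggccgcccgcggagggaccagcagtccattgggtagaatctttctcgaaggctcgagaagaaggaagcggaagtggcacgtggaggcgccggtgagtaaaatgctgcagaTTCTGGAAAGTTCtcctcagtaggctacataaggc
Chordc1: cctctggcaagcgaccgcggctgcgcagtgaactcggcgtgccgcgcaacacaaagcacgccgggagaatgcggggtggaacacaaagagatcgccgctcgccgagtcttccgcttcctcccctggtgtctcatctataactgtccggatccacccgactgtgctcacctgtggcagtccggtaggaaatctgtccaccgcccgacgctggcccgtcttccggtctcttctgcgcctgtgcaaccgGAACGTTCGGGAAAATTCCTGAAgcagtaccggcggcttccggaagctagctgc
Hspb1: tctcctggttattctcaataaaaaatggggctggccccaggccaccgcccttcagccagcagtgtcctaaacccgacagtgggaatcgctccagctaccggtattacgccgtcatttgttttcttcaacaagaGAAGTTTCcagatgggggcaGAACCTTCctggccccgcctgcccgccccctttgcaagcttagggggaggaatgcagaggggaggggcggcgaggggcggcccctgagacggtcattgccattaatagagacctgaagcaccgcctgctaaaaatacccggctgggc
The XBP1-type element TGACGTGG was in 0 of 33 members and 0.714% of all genes, and the ATF4-type element TGATGNAA was in Herpud1 and Trib3 and in 4.51% of all genes. A match is a description of the letters and not a binding site.

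Each library held 28.64 to 29.96 M estimated counts, and levels are given as CPM, counts scaled to the same total in every library, with TMM factors for library composition. As a check of the labels, Dnmt3a was at 32.7 to 37.7 CPM in the 8 control libraries and at 623 to 1249 CPM in the 8 Dnmt3a2 libraries, 27.7-fold higher at 1 day (edgeR adjusted p = 2.192e-09) and 33.0-fold higher at 5 days (edgeR adjusted p = 1.27e-09). The lowest of the 8 was Dnmt3a2 replicate 1 at 1 day, at 623 CPM, and replicates 2, 3 and 4 of that group were at 1096, 1153 and 982 CPM. The hippocampal markers Prox1, a dentate granule cell factor, and Fibcd1, a marker of CA1, were at 134 to 186 CPM and 198 to 232 CPM in the 16 libraries. Means of Prox1 in Dnmt3a2 and control were 159 ± 19.95 and 154 ± 15.4 CPM at 1 day and 141 ± 8.42 and 164 ± 9.24 CPM at 5 days (SD, n = 4). Those of Fibcd1 were 216 ± 14.6 and 205 ± 5.42 CPM at 1 day and 230 ± 1.73 and 215 ± 17.8 CPM at 5 days. C1ql2, another dentate granule cell marker, was lower in every Dnmt3a2 library than in every control of its day, with means of 135 ± 12.9 against 175 ± 20.3 CPM at 1 day and 128.0 ± 5.58 against 194 ± 19.2 CPM at 5 days (SD, n = 4). Wfs1, enriched in CA1, had means of 256 ± 43.3 against 309.6 ± 37.9 CPM and 233 ± 25.3 against 299 ± 32.5 CPM, and its groups overlapped on both days. Of 15 hippocampal neuron markers, these included, 9 were above 0 at 1 day and 7 at 5 days. The median log2 differences were 0.018 and -0.015. At an edgeR adjusted p under 0.05, 1 was higher at 1 day, and 1 was higher and 1 lower at 5 days. The part of these markers in the results was not tested. Choroid plexus genes stood apart in Dnmt3a2 replicate 1 at 1 day and Dnmt3a2 replicate 1 at 5 days, where Ttr, their most abundant transcript, was at 773 and 1253 CPM against 5.51 to 157 CPM in the other 14 libraries. Interferon response genes stood apart in these same libraries and in control replicate 1 at 1 day. All of these libraries carry replicate number 1, and the labels do not say whether the numbers pair libraries across groups.

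Per kilobase of exonic sequence, the constitutive cytosolic chaperones were the most abundant members. The mean over the 16 libraries was 510.2 CPM per kb for Hsp90ab1, the constitutive HSP90, 346 for Hspa8, the constitutive HSP70, and 153 for Hsp90aa1, the inducible HSP90. Calr, a lectin chaperone that holds glycoproteins in the ER, followed with 123 CPM per kb and led the ER arm. Next in CPM per kb came Stip1, which links HSP70 to HSP90 (68.9), the disulfide isomerase Pdia3 (43.5), the lectin chaperone Canx (40.4), the ER HSP90 Hsp90b1 (38.9), the J protein Dnajb5 (33.9), Atf4 (32.5), Hspa5 (29.6) and the mitochondrial chaperonin Hspd1 (29.4). The 2 stress-inducible HSP70 genes were low, 6.21 CPM per kb for Hspa1b and 5.47 for Hspa1a, as was the small heat shock protein Hspb1 with 4.70. At the bottom were the ER sensor Eif2ak3 with 3.48 CPM per kb, the J protein Dnajb4 with 3.46 and the ER sensor Ern1 with 0.993.

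The remaining members lay between these levels. They were, in CPM per kb, the HSP110 gene Hsph1 at 24.4, Xbp1 at 20.2, the cap of the mitochondrial chaperonin Hspe1 at 19.1, Herpud1 of ER-associated degradation at 17.4, the HSP90 activator Ahsa1 at 16.9 and the ER J protein Dnajb9 at 16.4. The J proteins Dnaja1 and Dnajb1 were at 16.1 and 13.6, and the disulfide isomerases Pdia6 and Pdia4 were at 15.7 and 10.4. Among the partners of Hspa5, the nucleotide exchange factor Hyou1 was at 12.2 CPM per kb, the J proteins Dnajb11 and Dnajc3 at 9.52 and 6.70, and Sdf2l1, which works with Dnajb11, at 6.01. Atf6 was at 9.499, the secreted ER proteins Manf and Creld2 at 8.10 and 5.45, the stress factor Ddit3 at 7.24, the HSP70 partner Bag3 at 6.08, Hsf1 at 5.96 and the HSP90 partner Chordc1 at 4.02 CPM per kb. Counting can move reads between near copies, and 44.8% to 70.1% of the 31-base words of Hspa1a, Hspa1b, Hspb1, Hspd1, Hsp90aa1 and Hspa8 also occur in other genes, so their levels are uncertain. Hspa1a and Hspa1b share words mostly with each other, 63.8% and 67.6% of them. By gene start and end, Manf overlaps Rbm15b on the same strand and Dcaf1 on the opposite strand. Opposite-strand overlaps of this kind join Ddit3 to Mars, Dnaja1 to Smu1, and Hspd1 and Hspe1 to each other. Overlap of their exons was not examined, so shared reads there are possible but not shown. On opposite strands they would also need counting that did not use strand. Hsp90b1, Pdia3 and Pdia6 overlap genes whose mean levels were 2.54, 1.29 and 0.540 CPM.

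At 1 day after training, most members of both arms had a higher mean in the Dnmt3a2 group than in control. The averages of both arms were high in 2 of the 4 Dnmt3a2 libraries, though single members varied. ER chaperones were up to 2.70 times the control mean in replicate 1 and up to 1.99 times in replicate 4, both for Sdf2l1. The arm averages of replicates 2 and 3 lay near control. No member passed edgeR's quasi-likelihood test at a Benjamini-Hochberg adjusted p under 0.05 over 16899 genes, where 0.0888% of all genes were called. The smallest edgeR adjusted p of a member was 0.239, for Calr. DESeq2 and limma-voom called 0 members as well, here and in the other 4 comparisons, in 1 of which DESeq2 gave no adjusted p for 4 members.

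Averaged over the 21 ER members, the log2 difference from the control mean of that day was 0.567 in Dnmt3a2 replicate 1, -0.054 in replicate 2, 0.040 in replicate 3 and 0.287 in replicate 4. For the 18 cytosolic members it was 0.345, -0.015, 0.044 and 0.296 in the same order. The other 12 libraries lay between -0.030 and 0.046 in both arms. Replicates 1 and 4 thus stood apart from all other libraries, in both arms at once, and replicates 2 and 3 did not.

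**Figure D1:**
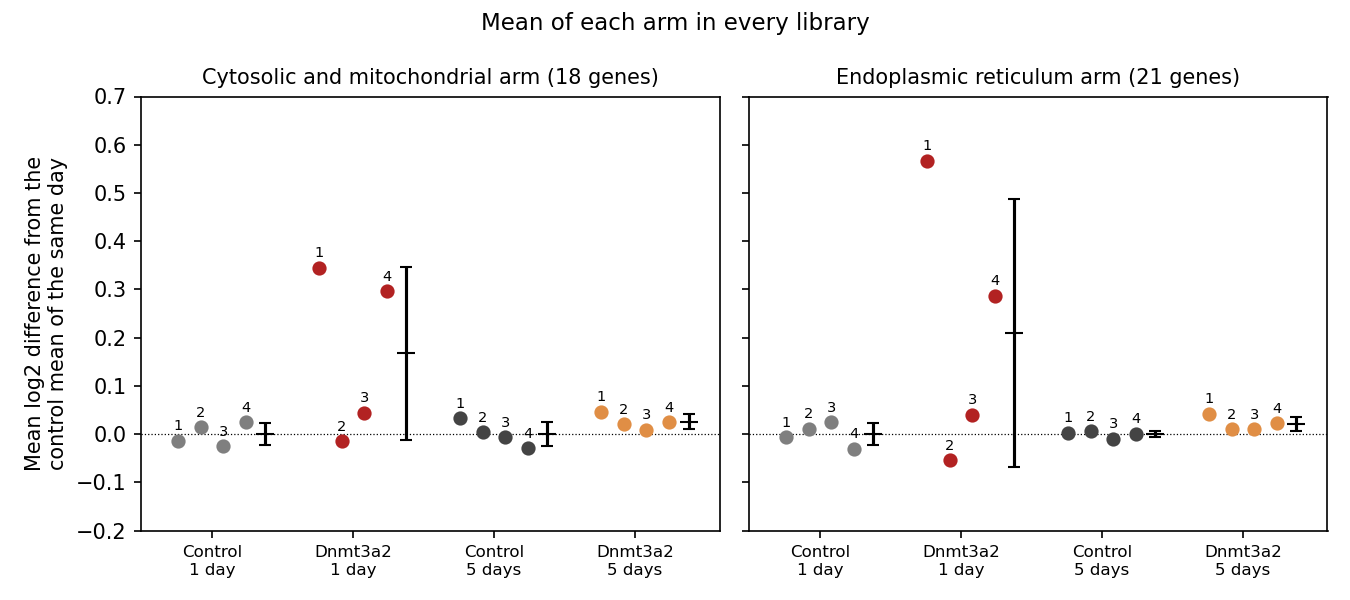
Mean log2 difference of each arm from the control mean of the same day (y axis) in each of the 16 libraries, shown as points numbered by replicate within 4 groups (x axis); dashes and bars are the group mean and SD. Dnmt3a2 replicates 1 and 4 at 1 day stand at 0.567 and 0.287 in the ER arm and at 0.345 and 0.296 in the cytosolic arm, and the other libraries lie within -0.054 and 0.046.

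The count of members gave the same picture for replicates 1, 2 and 4, while replicate 3 also exceeded the share of all genes in the ER arm. Replicate 1 was above all 12 libraries of the other 3 groups for 17 of 21 ER members and 10 of 18 cytosolic members, against 14.0% of all genes tested. Replicate 4 was above them for 14 of 21 and 10 of 18, against 13.2% of all genes. For replicate 3 the counts were 6 of 21 and 1 of 18, against 5.01% of all genes, and for replicate 2 they were 1 of 21 and 0 of 18, against 5.88%. The 2 high libraries also exceeded the rest for more genes overall than replicates 2 and 3 did.

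**Figure D2:**
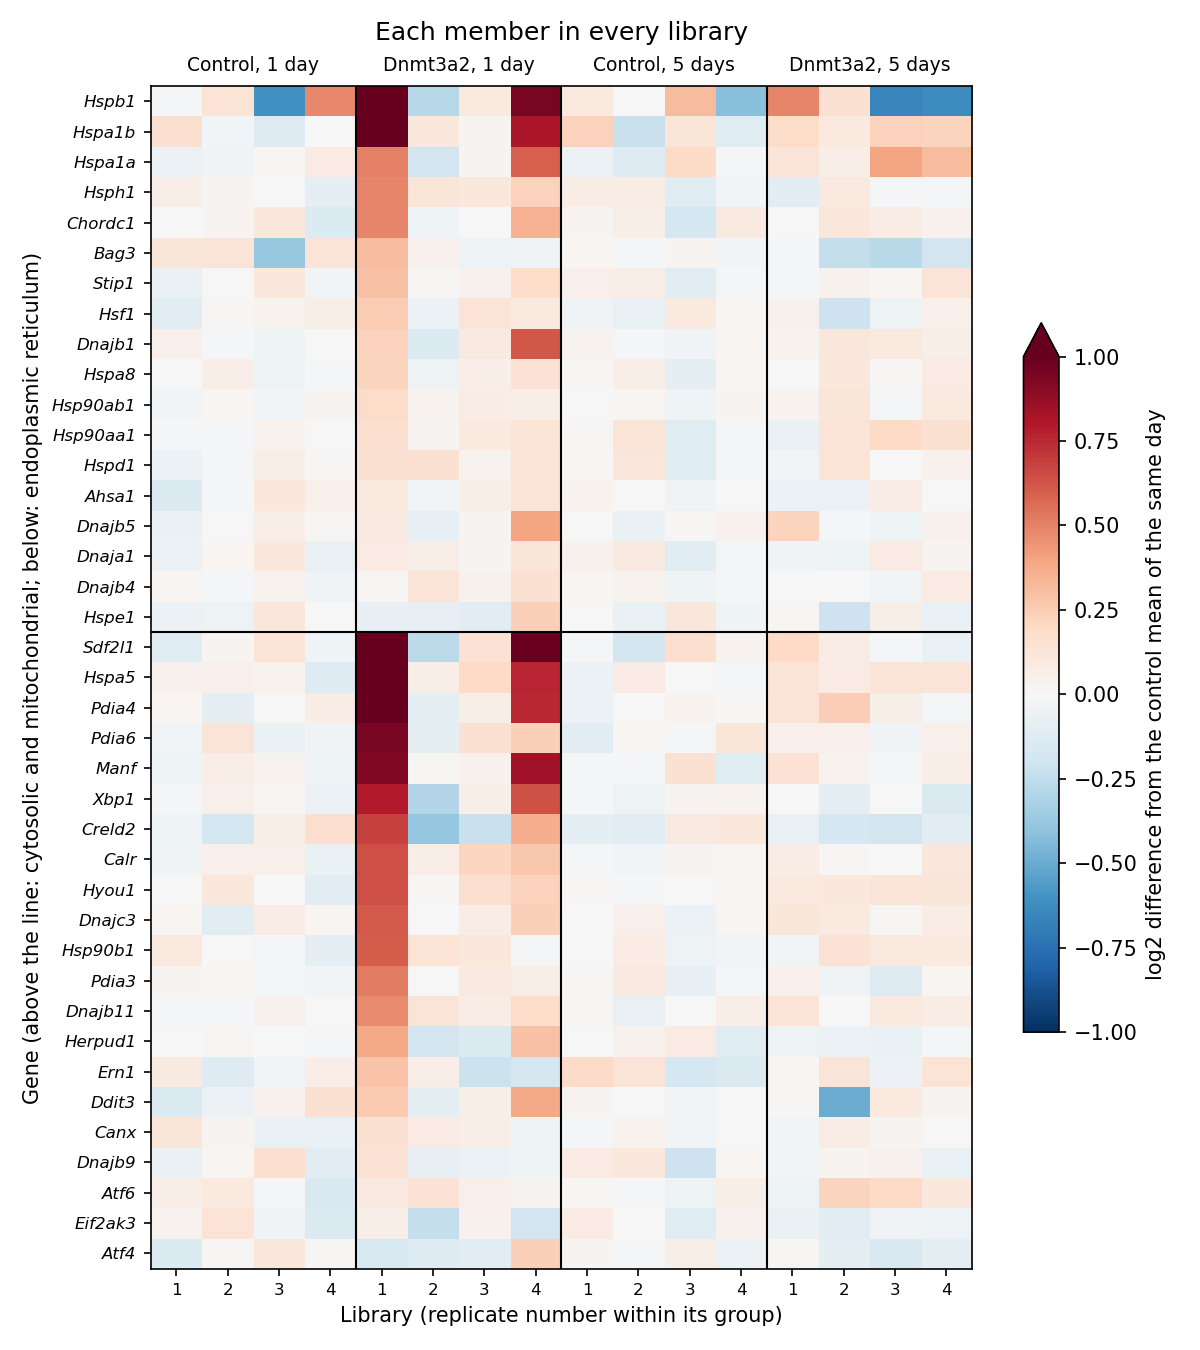
Log2 difference from the control mean of the same day (colour, with values above 1 in the darkest red) for the 39 tested members (rows, cytosolic and mitochondrial above the line, ER below) in 16 libraries (columns, by group and replicate). The columns of Dnmt3a2 replicates 1 and 4 at 1 day are red for most rows in both arms, and the rows of Atf6, Eif2ak3 and Atf4 at the foot are pale in nearly every library.

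In the comparison over groups, 18 of 21 ER members had a log2 difference above 0 at 1 day, with a median of 0.22, and 17 of 18 cytosolic members, with a median of 0.11. Over all genes tested, 50.9% were above 0 and the median was 0.0029. At an unadjusted edgeR p under 0.05, 11 ER and 7 cytosolic members were higher and 0 were lower, against 3.88% of all genes higher and 3.3% lower. Without Dnmt3a2 replicate 1 at 1 day this count of 18 members was 7, without control replicate 4 at 1 day it was 11, and with only the 2 groups in the fit it was 7. In 3 ER members (Calr, Hspa5 and Dnajb11) and 2 cytosolic members (Hsph1 and Hsp90ab1) every Dnmt3a2 library was above every control library, against 1.67% of all genes. The members were chosen with earlier results of these data known. Shares set against all genes, here and for single libraries above, therefore describe the list and do not test it.

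Hspa5, the ER HSP70 that both folds proteins and restrains the sensors, was at 109, 109.8, 109 and 96.6 CPM in control replicates 1 to 4 and at 252, 111, 122 and 179.8 CPM in Dnmt3a2 replicates 1 to 4. All 4 Dnmt3a2 values were above all 4 controls, but replicate 2 exceeded the highest control by under 1 CPM. The group means were 106 ± 6.30 CPM and 166 ± 64.9 CPM (SD, n = 4), a log2 difference of 0.65 ± 0.19 (SE) with an edgeR adjusted p of 0.418. Here and below, the edgeR SE and p of a gene rest on a spread shared by all groups, not only those compared. Without replicate 1 the log2 difference of Hspa5 was 0.37.

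Several of its partners in the ER were also highest in replicate 1. Sdf2l1 was at 5.27, 5.86, 6.32 and 5.59 CPM in control and at 15.6, 4.79, 6.37 and 11.47 CPM in Dnmt3a2, so that replicate 2 was below every control. Hyou1, which exchanges nucleotide on Hspa5, was at 82.7, 88.6, 81.95 and 76.4 CPM in control and 129, 82.9, 92.04 and 96.6 CPM in Dnmt3a2, a log2 difference of 0.28 ± 0.090 SE (adjusted p 0.420, edgeR). Replicates 3 and 4 of Hyou1 were above the controls by less than replicate 1, and replicate 2 lay among them. Dnajb11, a J protein that brings clients to Hspa5, was at 28.99, 28.9, 30.3 and 29.3 CPM and 40.7, 32.1, 30.9 and 33.3 CPM, with no overlap and a log2 difference of 0.22 ± 0.072 SE (adjusted p 0.420, edgeR). Dnajc3, another J protein of the ER, reached 50.7 CPM in replicate 1 against 30.6 to 34.9 CPM in control. Dnajb9, a J protein that binds IRE1, was at 46.7, 39.9, 40.4 and 40.9 CPM and stayed within the control range of 39.1 to 47.1 CPM in all 4 libraries.

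Among secreted and folding members, Manf, an ER-resident protein with neurotrophic activity, was at 25.3, 27.4, 26.9 and 25.3 CPM in control and 49.8, 26.4, 26.97 and 46.9 CPM in Dnmt3a2, a log2 difference of 0.52 ± 0.17 SE (adjusted p 0.431, edgeR). Replicates 1 and 4 of Manf were close to each other and far above the controls, and replicates 2 and 3 lay within the control range. Creld2 showed 7.38, 6.74, 7.97 and 8.500 CPM in control and 12.3, 5.80, 6.51 and 9.84 CPM in Dnmt3a2, with replicates 2 and 3 below every control. The disulfide isomerase Pdia4 was at 49.8, 20.6, 22.8 and 36.95 CPM in Dnmt3a2, replicates 1 and 4 being above the control range of 20.6 to 23.1 CPM. Pdia6 was at 104, 50.9, 60.2 and 63.8 CPM against 51.7 to 59.4 CPM in control, and Pdia3 at 184, 129, 138 and 134 CPM against 127 to 132 CPM, so that in both genes replicate 1 stood far above replicate 4.

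The lectin chaperones of the ER went apart. Calr was at 318, 338, 336 and 311 CPM in control and 509.6, 342, 377 and 392 CPM in Dnmt3a2, a log2 difference of 0.31 ± 0.082 (SE). Every Dnmt3a2 value of Calr was above every control, and without replicate 1 its log2 difference was 0.18. Canx, its membrane-bound relative, was at 203, 193, 191 and 178 CPM against 174 to 198 CPM in control, and the groups overlapped. Hsp90b1, the ER HSP90, was at 154, 144, 143 and 135 CPM in control and 219, 158, 154 and 141 CPM in Dnmt3a2, a log2 difference of 0.23 ± 0.10 SE (adjusted p 0.628, edgeR), with replicate 1 far above and replicate 4 inside the control range. Herpud1, which takes part in the removal of ER proteins, was at 41.6, 41.8, 41.3 and 41.2 CPM in control and 53.9, 36.6, 37.5 and 50.8 CPM in Dnmt3a2. The 4 controls of Herpud1 lay within 1 CPM of each other, with 2 Dnmt3a2 libraries above all of them and 2 below.

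Among the signalling genes of the ER arm, Xbp1 and Ddit3 were high in replicates 1 and 4, as many of the chaperones were. Xbp1 was at 63.6, 66.2, 65.05 and 61.4 CPM in control and 111, 52.3, 66.6 and 99.7 CPM in Dnmt3a2, a log2 difference of 0.36 ± 0.17 SE (adjusted p 0.698, edgeR). Replicates 1 and 4 of Xbp1 were above every control, replicate 2 was below every control, and spliced and unspliced Xbp1 are not separated in gene counts. Ddit3, the factor linked to cell death under long ER stress, was at 11.2, 11.9, 12.8 and 13.7 CPM in control and 14.81, 11.6, 12.9 and 16.1 CPM in Dnmt3a2, a log2 difference of 0.16 ± 0.12 SE (adjusted p 0.848, edgeR). Replicates 1 and 4 of Ddit3 were above every control by less than those of Xbp1.

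Atf4 and the 3 sensors lay close to control at the level of mRNA. Atf4 was at 71.4, 79.2, 84.6 and 78.8 CPM in control and 70.2, 71.6, 72.8 and 92.2 CPM in Dnmt3a2, a log2 difference of -0.033 ± 0.074 SE (adjusted p 0.970, edgeR), with replicate 4 above every control and replicate 1 below. Atf6 was at 88.6, 90.3, 83.7 and 76.1 CPM and 89.8, 93.2, 87.5 and 86.1 CPM, with a log2 difference of 0.074 ± 0.062 SE (adjusted p 0.867, edgeR). Eif2ak3 was at 21.9, 23.6, 20.9 and 19.4 CPM and 22.3, 18.2, 22.04 and 18.7 CPM, with a log2 difference of -0.079 ± 0.077 SE (adjusted p 0.888, edgeR). In Atf6 and Eif2ak3 the groups overlapped and replicates 1 and 4 were not the highest pair. Ern1 was at 8.37, 7.18, 7.73 and 8.26 CPM and 9.59, 8.26, 6.79 and 7.002 CPM, with a log2 difference of 0.0046 ± 0.12 SE (adjusted p 0.997, edgeR). These proteins are activated by cleavage, phosphorylation or translation, which mRNA counts do not show.

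In the cytosolic arm, the inducible HSP70 genes and Hspb1 were high in the same libraries. Other members of the arm, given below, did not all follow. Hspa1b was at 16.6, 14.6, 13.6 and 14.81 CPM in control and 30.4, 15.9, 15.1 and 26.1 CPM in Dnmt3a2, a log2 difference of 0.56 ± 0.19 SE (adjusted p 0.431, edgeR). Hspa1a, its near copy, was at 14.83, 15.03, 15.6 and 16.3 CPM and 21.9, 13.6, 15.7 and 23.4 CPM, a log2 difference of 0.27 ± 0.13 SE (adjusted p 0.720, edgeR). In both genes replicates 1 and 4 were above every control. Hspb1, a small heat shock protein that holds unfolded clients, was at 4.35, 4.82, 2.85 and 6.14 CPM in control and 14.4, 3.58, 4.68 and 8.53 CPM in Dnmt3a2, so that replicate 1 was 3.18 times the control mean. The spread of Hspb1 among controls was wide for its level, and 4.70 CPM per kb is among the lowest levels of the arm.

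**Figure D3:**
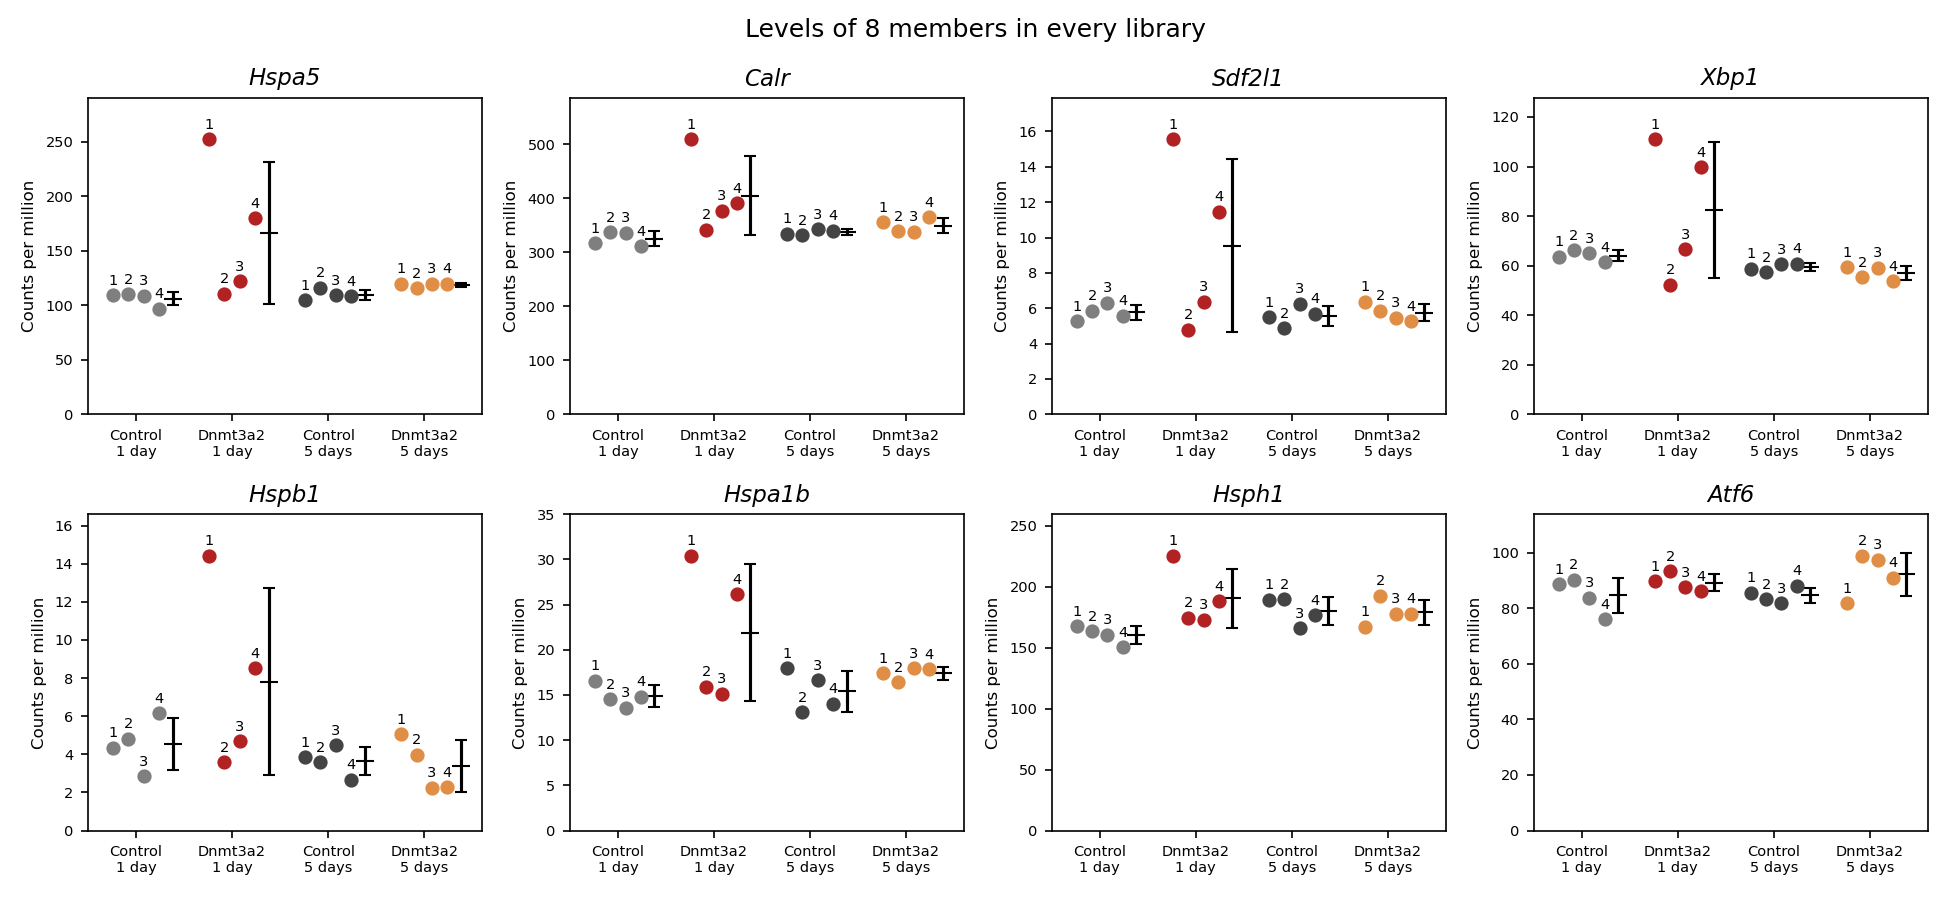
CPM after TMM scaling (y axis, from 0) of 8 members in each library, shown as points numbered by replicate within 4 groups (x axis), with dashes and bars for the group mean and SD. In Hspa5, Sdf2l1, Xbp1, Hspb1 and Hspa1b, Dnmt3a2 replicates 1 and 4 at 1 day lie above all other libraries, and in Atf6 they lie among them.

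Hsph1, the HSP110 that exchanges nucleotide on HSP70, was at 168, 164, 161 and 151 CPM in control and 226, 175, 173 and 188 CPM in Dnmt3a2, a log2 difference of 0.24 ± 0.073 SE (adjusted p 0.371, edgeR). Its groups did not overlap. Dnajb1, the J protein most tied to the heat shock response, was at 42.6, 40.8, 39.7 and 41.2 CPM in control and 48.1, 37.4, 43.7 and 63.05 CPM in Dnmt3a2, a log2 difference of 0.23 ± 0.10 SE (adjusted p 0.648, edgeR). Replicate 4 was the highest for Dnajb1, and replicate 2 was below every control. Chordc1, an HSP90 partner whose window holds the heat shock element, was at 29.4, 29.96, 31.6 and 26.7 CPM in control and 41.3, 28.5, 29.4 and 37.5 CPM in Dnmt3a2, a log2 difference of 0.21 ± 0.10 SE (adjusted p 0.652, edgeR).

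The abundant chaperones, constitutive and inducible, differed over a narrow range. Hsp90ab1 was at 1424, 1472, 1427 and 1482 CPM in control and 1646, 1489, 1532 and 1522 CPM in Dnmt3a2, a log2 difference of 0.093 ± 0.042 SE (adjusted p 0.652, edgeR). All 4 Dnmt3a2 values of Hsp90ab1 were above the controls, the lowest by 7 CPM. Hspa8 was at 1425, 1484, 1372 and 1396 CPM and 1659, 1373, 1489 and 1566 CPM, a log2 difference of 0.10 ± 0.052 SE (adjusted p 0.752, edgeR), and Hsp90aa1 at 554, 552, 571 and 557 CPM and 622, 570.1, 598 and 614 CPM, a log2 difference of 0.11 ± 0.056 SE (adjusted p 0.760, edgeR). Both had overlapping groups. Hsf1, the factor itself, was at 39.7, 43.4, 44.03 and 44.7 CPM in control and 51.05, 41.2, 47.1 and 45.9 CPM in Dnmt3a2, a log2 difference of 0.11 ± 0.071 SE (adjusted p 0.819, edgeR).

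The other cytosolic members were close to control in most libraries. Stip1 reached 169.9 CPM in replicate 1 and 158 CPM in replicate 4, against 132 to 149 CPM in control. Dnajb5, a J protein of neurons and muscle, was at 258 CPM in replicate 4, where the other 7 libraries at 1 day lay between 185 and 208 CPM. Bag3 was at 18.96, 15.8, 14.7 and 14.9 CPM and Ahsa1 at 76.8, 70.6, 75.2 and 78.6 CPM in Dnmt3a2, against 11.8 to 16.8 and 65.2 to 77.4 CPM in control. Dnaja1 and Dnajb4 were at 136 to 145 and 29.3 to 32.3 CPM, against 127 to 144 and 28.2 to 29.7 CPM. The mitochondrial pair Hspd1 and Hspe1, which share a start region, were at 80.6, 80.4, 74.02 and 79.2 CPM and 27.4, 27.4, 26.8 and 34.4 CPM in Dnmt3a2, against 69.4 to 75.4 and 27.9 to 31.4 CPM in control.

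Single libraries set the size of many of these differences at 1 day. Without Dnmt3a2 replicate 1 the log2 difference was 0.073 for Hsp90b1, 0.14 for Hyou1, 0.13 for Dnajb11, 0.19 for Xbp1, 0.36 for Hspa1b, 0.15 for Hsph1 and 0.11 for Chordc1. It was 0.058 for Hsf1, 0.057 for Hspa8 and 0.062 for Hsp90ab1 in the same setting. Without replicate 4 it was 0.067 for Dnajb1, 0.14 for Hspa1a and 0.077 for Ddit3. Without control replicate 4 the difference of Atf6 was 0.026, and those of Atf4, Eif2ak3 and Ern1 moved by more than 1.5 times with several libraries of either group left out.

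The 2 high libraries did not share all their high genes. On the log2 scale, Pdia6 was 0.95 above the control mean in replicate 1 and 0.24 in replicate 4, Hsp90b1 0.61 and -0.023, and Pdia3 0.51 and 0.059. In the other direction, Dnajb1 was 0.23 in replicate 1 and 0.62 in replicate 4, Dnajb5 0.087 and 0.40, and Atf4 -0.16 and 0.23. Manf (0.93 and 0.84), Hspa1b (1.03 and 0.81) and Xbp1 (0.79 and 0.64) were high in both. These genes were picked after their values were seen, and no test compares single libraries.

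**Figure D4:**
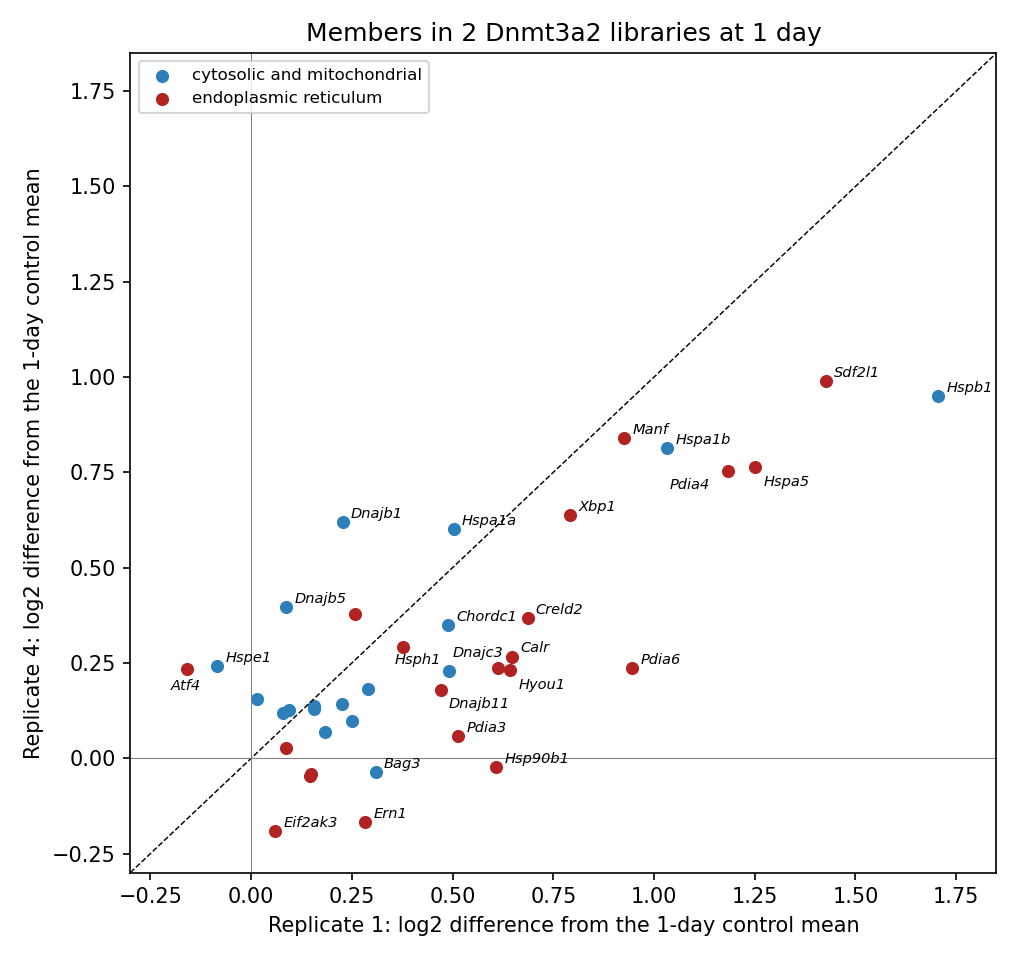
Log2 difference from the 1-day control mean for the 39 members in Dnmt3a2 replicate 1 (x axis) and replicate 4 (y axis) at 1 day, coloured by arm, with the line of equal values dashed. Most members lie above 0 on both axes; Pdia6, Pdia3 and Hsp90b1 lie far below the line, and Dnajb1, Dnajb5 and Atf4 above it.

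Other gene lists also differed in these libraries, and their part in the result was not tested. Summed over the 19 tested of 20 choroid plexus genes, control at 1 day ran from 168.7 to 237 CPM and Dnmt3a2 at 1 day from 173 to 1294 CPM, with the highest value in replicate 1. Dnmt3a2 replicate 1 at 5 days had more choroid plexus RNA, 1986 CPM, with an ER arm mean of 0.042 and a cytosolic mean of 0.046, and Dnmt3a2 replicate 4 at 1 day was high in both arms with a mean choroid plexus difference of -0.28. Summed over 24 of 25 interferon response genes, control at 1 day ran from 93.8 to 167 CPM and Dnmt3a2 at 1 day from 116 to 189 CPM. Control replicate 1 at 1 day, with a mean interferon difference of 0.71, had arm means of -0.006 and -0.014. In bulk tissue, fewer cells of a type and less RNA per cell cannot be told apart.

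Without the 2 choroid-rich libraries the ER median at 1 day was 0.10 and 7 members had an unadjusted p under 0.05, and without the 3 interferon-rich libraries the values were 0.094 and 5. Both settings remove Dnmt3a2 replicate 1 at 1 day and were chosen after seeing the data, so neither tests the part of these lists. In replicates 1 and 4, astrocyte markers were 0.17 and 0.16 above the control mean on the log2 scale, and glucocorticoid response genes 0.22 and 0.32. Control replicate 4 at 1 day had a glucocorticoid mean of 0.21 with an ER arm mean of -0.030. Immediate early genes were 0.42 above control in replicate 4 and -0.066 in replicate 1. All 15 astrocyte genes were tested, with summed levels of 4213 to 4428 CPM in control and 4412 to 4871 CPM in Dnmt3a2 at 1 day. Oligodendrocyte markers, all 15 tested, were at 3969 to 5642 CPM and 4379 to 6525 CPM in these groups, with a mean difference of 0.44 in replicate 1 and -0.26 in replicate 4.

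**Figure D5:**
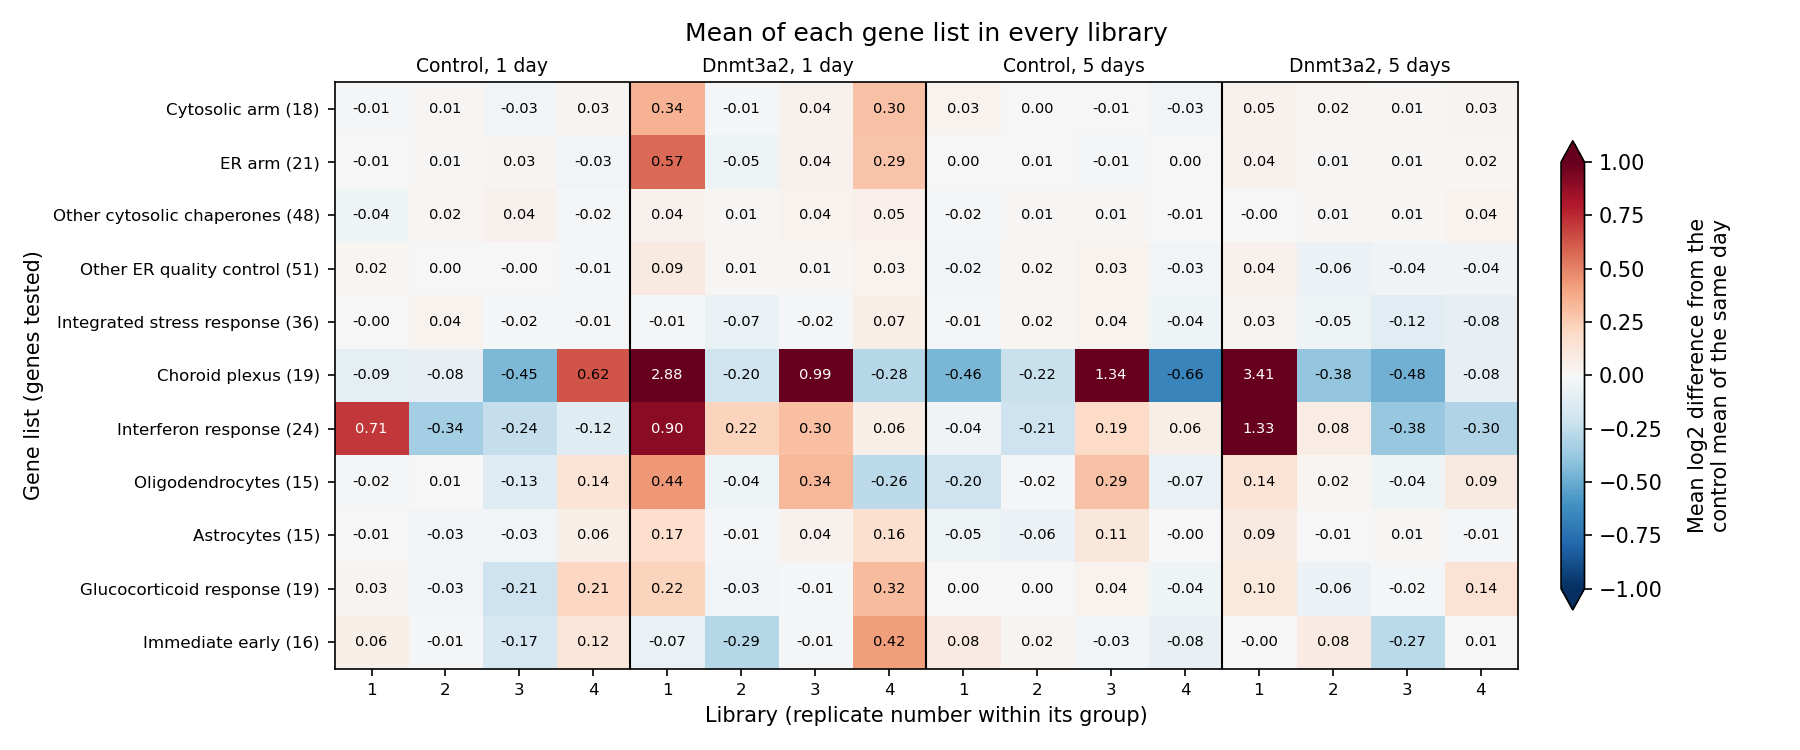
Mean log2 difference from the control mean of the same day (colour and printed value; colours stop at -1 and 1) for 11 gene lists (rows, with the number of genes tested) in 16 libraries (columns, by group and replicate). The 2 arms are high in Dnmt3a2 replicates 1 and 4 at 1 day. Choroid plexus genes are high in Dnmt3a2 replicate 1 at 1 day (2.88) and in Dnmt3a2 replicate 1 at 5 days (3.41). In the latter library the arms are at 0.046 and 0.042.

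Wider lists of the same pathways stayed nearer to control. Of 51 other genes of ER quality control, 32 were above 0 at 1 day with a median log2 difference of 0.033; of 48 other cytosolic chaperones, 35 with a median of 0.024; and of 36 genes of the integrated stress response, 19 with a median of 0.0045. No gene of the 3 lists was called at 1 day or at 5 days. The smallest p-values at 1 day belonged to Derl3, a component of ER-associated degradation (log2 difference 0.77 ± 0.28 (SE), edgeR adjusted p = 0.489), and Wfs1, an ER membrane protein of CA1 neurons (-0.28 ± 0.12, 0.653). In the other lists they belonged to the J protein Dnaja4 (0.16 ± 0.070, 0.629), the myosin chaperone Unc45a (0.16 ± 0.074, 0.690), the ATF4 target Asns, asparagine synthetase (-0.15 ± 0.050, 0.431), and the stress cytokine Gdf15 (-0.83 ± 0.29, 0.431). Asns and Gdf15 thus had lower means in Dnmt3a2, and Dnaja4 and Derl3 higher ones. Derl3 and Gdf15 had low levels with overlapping groups. Derl3 was at 1.03 to 2.11 CPM in control and 1.59 to 3.68 CPM in Dnmt3a2, and Gdf15 at 1.065 to 2.46 CPM and 0.618 to 1.48 CPM.

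Among 18 tested ER members with a promoter window, the 7 with the ER stress element had a median log2 difference of 0.25 at 1 day, from 0.062 to 0.65, and the 11 without it had a median of 0.16, from -0.079 to 0.73. The highest value of the 18 was that of Sdf2l1, whose window does not hold the element. Atf6, Hyou1 and Manf had no window and are not among the 18.

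At 5 days after training, the averages of both arms lay within 0.046 of control on the log2 scale in every Dnmt3a2 library. Of the 156 values of single members in these libraries, 149 were within 0.25 of the control mean. The values farthest from it were those of Hspb1, at 0.49, 0.15, -0.66 and -0.63 in replicates 1 to 4, of Ddit3, at -0.50 in replicate 2, and of Hspa1a, at 0.39 in replicate 3. No member was called by edgeR, where 0.32% of all genes were, and the smallest edgeR adjusted p was 0.652, for Atf6. In the ER arm 13 of 21 members were above 0 with a median log2 difference of 0.044, and in the cytosolic arm 12 of 18 with a median of 0.040, against 52.8% and 0.0081 over all genes. At an unadjusted p under 0.05 there were 0 members in either direction, against 3.97% of all genes higher and 4.04% lower. Hyou1 and Dnajb1 were higher in every Dnmt3a2 library than in every control, against 3.0% of all genes. Without control replicate 3 at 5 days, the cytosolic median was 0.0036 and the ER median 0.020.

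Hspa5 was at 105, 116, 109 and 108 CPM in control and 119.8, 116, 119.6 and 119.6 CPM in Dnmt3a2 at 5 days, a log2 difference of 0.12 ± 0.19 SE (adjusted p 0.955, edgeR). Its SD was 4.70 CPM in control and 2.06 CPM in Dnmt3a2 at 5 days. The SE also takes in the wide spread of Dnmt3a2 at 1 day, where the SD was 64.9 CPM. Replicate 2 of control lay just above the lowest Dnmt3a2 value, and no library exceeded 119.8 CPM, against 179.8 CPM in Dnmt3a2 replicate 4 at 1 day. Hyou1 was at 82.96, 81.6, 82.2 and 83.2 CPM and 88.4, 88.6, 90.2 and 89.9 CPM, a log2 difference of 0.11 ± 0.090 SE (adjusted p 0.854, edgeR). Dnajb11 was at 29.2, 27.5, 28.8 and 30.3 CPM and 31.9, 29.02, 31.03 and 30.4 CPM, with 0.080 ± 0.072 SE (adjusted p 0.879, edgeR) on the log2 scale. Both partners of Hspa5 had slightly higher means in Dnmt3a2. Hsp90b1 was at 152, 162, 148 and 150.2 CPM and 149.8, 169, 164 and 164 CPM, a log2 difference of 0.079 ± 0.10 SE (adjusted p 0.928, edgeR).

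Among the ER signalling genes, Atf6 was at 85.5, 83.3, 81.8 and 88.1 CPM in control and 81.9, 98.95, 97.4 and 90.9 CPM in Dnmt3a2 at 5 days, a log2 difference of 0.12 ± 0.062 (SE). Dnmt3a2 replicates 2, 3 and 4 were above every control, and replicate 1 was among the lowest. Atf4 was at 79.2, 76.8, 80.9 and 74.6 CPM and 78.6, 72.6, 70.04 and 72.7 CPM, a log2 difference of -0.084 ± 0.074 SE (adjusted p 0.878, edgeR), and Eif2ak3 at 22.8, 21.5, 19.8 and 22.3 CPM and 20.6, 19.9, 21.02 and 20.9 CPM, with -0.068 ± 0.077 SE (adjusted p 0.920, edgeR). Xbp1 was at 58.8, 57.3, 60.4 and 60.7 CPM and 59.4, 55.4, 59.2 and 53.7 CPM, with -0.058 ± 0.17 SE (adjusted p 0.971, edgeR). All 3 had overlapping groups and slightly lower means in Dnmt3a2.

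Ddit3 was at 12.2, 12.02, 11.7 and 11.96 CPM in control and 12.1, 8.46, 12.8 and 12.2 CPM in Dnmt3a2 at 5 days, a log2 difference of -0.072 ± 0.12 SE (adjusted p 0.951, edgeR), with replicate 2 of Dnmt3a2 apart at the low end. Ern1 was at 9.32, 8.90, 7.22 and 7.35 CPM and 8.26, 8.92, 7.81 and 8.94 CPM, with 0.049 ± 0.11 SE (adjusted p 0.964, edgeR). Their groups overlapped. Among the other ER members, Manf was at 27.2, 25.2, 24.3 and 25.9 CPM against 22.7 to 27.4 CPM, Sdf2l1 at 5.28 to 6.37 CPM against 4.88 to 6.27 CPM and Calr at 338 to 365 CPM against 331 to 343 CPM.

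In the cytosolic arm at 5 days, Hspa1a was at 13.6, 12.95, 16.1 and 14.04 CPM in control and 15.5, 14.78, 18.6 and 17.6 CPM in Dnmt3a2, a log2 difference of 0.23 ± 0.14 SE (adjusted p 0.760, edgeR). Hspa1b was at 17.97, 13.1, 16.6 and 14.04 CPM and 17.4, 16.4, 17.99 and 17.8 CPM, with 0.17 ± 0.19 SE (adjusted p 0.916, edgeR). The means of both inducible HSP70 genes were higher in Dnmt3a2, with overlapping groups. Bag3, which joins HSP70 to autophagy, was at 16.5, 16.1, 16.6 and 15.98 CPM in control and 16.1, 13.8, 13.5 and 14.3 CPM in Dnmt3a2, a log2 difference of -0.17 ± 0.10 SE (adjusted p 0.758, edgeR). Replicates 2, 3 and 4 of Bag3 were below every control and replicate 1 was not. Hspb1 was at 3.84, 3.59, 4.47 and 2.67 CPM in control and 5.05, 3.98, 2.24 and 2.29 CPM in Dnmt3a2, with replicate 1 above every control and replicates 3 and 4 below every control.

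Hsp90aa1 was at 602, 653, 551 and 589.5 CPM in control and 570.5, 654, 687 and 663 CPM in Dnmt3a2 at 5 days, a log2 difference of 0.10 ± 0.056 SE (adjusted p 0.705, edgeR). Hsp90ab1 was at 1526, 1553, 1482 and 1556 CPM and 1564, 1659, 1516 and 1633 CPM, with 0.059 ± 0.042 SE (adjusted p 0.822, edgeR), and Hspa8 at 1493, 1545, 1389 and 1487 CPM and 1474, 1591, 1490 and 1567 CPM, with 0.050 ± 0.052 SE (adjusted p 0.911, edgeR). All 3 abundant chaperones had higher means in Dnmt3a2 with overlapping groups. Without Dnmt3a2 replicate 1 at 5 days the log2 difference of Hsp90aa1 was 0.16, and without control replicate 3 it was 0.066. Hsf1 was at 39.5, 38.3, 43.2 and 40.8 CPM and 41.7, 35.1, 39.1 and 41.9 CPM, with -0.037 ± 0.071 SE (adjusted p 0.961, edgeR). Dnajb1 was at 42.2, 40.8, 40.3 and 41.7 CPM and 42.3, 44.6, 44.05 and 42.9 CPM, the lowest Dnmt3a2 value of 42.3 CPM lying just above the highest control of 42.2 CPM.

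Outside the members at 5 days, the smallest p-values in the wider lists were those of Creb3l1, an ER-bound transcription factor (log2 difference -0.49 ± 0.11 (SE), edgeR adjusted p = 0.0613), Wfs1 (-0.36 ± 0.12, 0.394), the testis-enriched HSP70 Hspa2 (0.20 ± 0.052, 0.127), the HSP70 relative Hspa12a (-0.16 ± 0.056, 0.399), Cebpb (-0.30 ± 0.095, 0.294) and Gdf15 (-0.74 ± 0.29, 0.459). The list medians were -0.0086 for 51 other ER quality control genes, 0.027 for 48 other cytosolic chaperones and -0.0095 for 36 integrated stress response genes. Creb3l1 was at 13.2, 10.8, 13.5 and 13.7 CPM in control and 11.1, 8.16, 9.31 and 8.04 CPM in Dnmt3a2, and the groups overlapped through Dnmt3a2 replicate 1. Gdf15 and Wfs1 had lower means in Dnmt3a2 on both days. Gdf15 was low at 5 days as well, at 1.32 to 2.43 CPM in control and 0.868 to 1.62 CPM in Dnmt3a2, with overlapping groups.

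Between 1 day and 5 days in control mice, Hspa5 was at 96.6 to 109.8 CPM at 1 day and 105 to 116 CPM at 5 days. Over the 8 control libraries the highest value of a member was at most 1.43 times its lowest for 38 of 39 members, with a median of 1.19 times, and 2.30 times for Hspb1. No member was called by edgeR, and 0.0% of all genes were. At an unadjusted p under 0.05, 2 members, both cytosolic, were higher at 5 days and 0 were lower, against 1.62% of all genes higher and 1.92% lower. In the cytosolic arm 12 of 18 members were above 0 with a median log2 difference of 0.046, and in the ER arm 10 of 21 with a median of -0.0003, against 8449 of the 16899 genes tested. The smallest p-values in the cytosolic arm were those of Hsph1, at 168, 164, 161 and 151 CPM at 1 day and 189.5, 189.8, 166 and 177 CPM at 5 days (log2 difference 0.17 ± 0.073 (SE), edgeR adjusted p = 0.999), and Hspd1, at 69.4, 71.8, 75.4 and 73.1 CPM and 79.6, 85.2, 72.5 and 78.3 CPM (log2 difference 0.12 ± 0.055 (SE), edgeR adjusted p = 0.999). Hsp90ab1 came next, with 0.076 ± 0.042 SE (adjusted p 0.999, edgeR). All 3 had higher means at 5 days with overlapping groups.

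In the ER arm of control mice the smallest p-values were those of Canx, at 198, 186, 174 and 174 CPM at 1 day and 189, 195, 187 and 192 CPM at 5 days (log2 difference 0.060 ± 0.051 (SE), edgeR adjusted p = 0.999), Herpud1, at 38.7, 40.01, 40.9 and 35.5 CPM at 5 days (-0.10 ± 0.10 (SE), edgeR adjusted p = 0.999), and Pdia3, at 132, 131, 127 and 127 CPM and 138, 145, 128 and 135 CPM (0.080 ± 0.082 (SE), edgeR adjusted p = 0.999). Herpud1 at 5 days was below every control at 1 day, with the highest value at 40.9 CPM against a lowest of 41.2 CPM. The same held for Xbp1, at 57.3 to 60.7 CPM at 5 days against 61.4 to 66.2 CPM at 1 day. These were 2 of 39 members, against 1.27% of all genes.

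Between 1 day and 5 days in Dnmt3a2 mice, the means of most members were lower at 5 days. This comparison and the one with control at 1 day use the same 4 Dnmt3a2 libraries at 1 day, so neither is independent of the other. No member was called, and 0.0% of all genes were. In the ER arm 4 of 21 members were above 0 with a median log2 difference of -0.21, and in the cytosolic arm 6 of 18 with a median of -0.083, against 50.2% of all genes above 0. At an unadjusted p under 0.05, 11 ER and 3 cytosolic members were lower and 0 were higher, against 5.23% of all genes lower and 5.55% higher. Without Dnmt3a2 replicate 1 at 1 day this count of 14 was 3, and without replicate 4 it was 8. It was 6 without the 2 choroid-rich libraries, 5 without the 3 interferon-rich ones and 3 with only the 2 groups in the fit.

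The smallest p-values in the ER arm were those of Manf, at 49.8, 26.4, 26.97 and 46.9 CPM at 1 day and 27.2, 25.2, 24.3 and 25.9 CPM at 5 days (log2 difference -0.55 ± 0.17 (SE), edgeR adjusted p = 0.327), Xbp1, at 111, 52.3, 66.6 and 99.7 CPM and 59.4, 55.4, 59.2 and 53.7 CPM (-0.53 ± 0.17 (SE), edgeR adjusted p = 0.328), and Sdf2l1, at 15.6, 4.79, 6.37 and 11.47 CPM and 6.37, 5.86, 5.47 and 5.28 CPM (-0.73 ± 0.26 (SE), edgeR adjusted p = 0.353). In all 3, replicates 1 and 4 at 1 day were above every library at 5 days. In the cytosolic arm they were those of Hsf1, at 51.05, 41.2, 47.1 and 45.9 CPM and 41.7, 35.1, 39.1 and 41.9 CPM (-0.23 ± 0.071 (SE), edgeR adjusted p = 0.314), Hspb1, at 14.4, 3.58, 4.68 and 8.53 CPM and 5.05, 3.98, 2.24 and 2.29 CPM (-1.20 ± 0.41 (SE), edgeR adjusted p = 0.351), and Chordc1, at 41.3, 28.5, 29.4 and 37.5 CPM and 28, 30.3, 29.4 and 28.8 CPM (-0.23 ± 0.10 (SE), edgeR adjusted p = 0.406). The groups overlapped in all 6. Without Dnmt3a2 replicate 1 at 1 day the log2 difference was -0.39 for Sdf2l1, -0.72 for Hspb1 and -0.13 for Chordc1.

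The difference between the Dnmt3a2 effects of the 2 days was tested directly, and no member was called, nor was any other gene (0.0%). The difference, 5 days minus 1 day, was above 0 for 0 of 18 cytosolic members with a median of -0.077 and for 4 of 21 ER members with a median of -0.17, against 51.2% of all genes. At an unadjusted p under 0.05, Hsph1 and Calr were lower and 0 members were higher, against 1.07% of all genes lower and 1.06% higher. Its smallest p-values were those of Hsph1 (-0.26 ± 0.10 (SE), edgeR adjusted p = 1.000), Bag3 (-0.23 ± 0.15, 1.000) and Hspb1 (-0.88 ± 0.59, 1.000) in the cytosolic arm, and Calr (-0.26 ± 0.12, 1.000), Manf (-0.46 ± 0.24, 1.000) and Hspa5 (-0.53 ± 0.27, 1.000) in the ER arm. Without Dnmt3a2 replicate 1 at 1 day these differences were -0.16 for Hsph1, -0.14 for Bag3, -0.40 for Hspb1, -0.13 for Calr, -0.30 for Manf and -0.26 for Hspa5. That of Bag3 was -0.12 without control replicate 3 at 1 day. At the spread of these libraries, a Dnmt3a2 effect that differs between days was not shown for any member.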

How the data were processed

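Bulk RNA of mouse dorsal hippocampus was measured in 16 libraries, 4 per group, each from 500 ng of total RNA on a BGISEQ-500. Per the submitters' processing notes, Trim Galore 0.6.4, kallisto 0.4.6, edgeR 3.17 and GRCm38.p6 were used; the order of steps, the annotation and strand use in counting were not stated in the sources used here. The deposited expected counts (estimated counts for 55385 identifiers, 26.2% of values not whole) are not normalised. The deposited log2 CPM values of 16907 genes equal edgeR's log2 CPM of these counts after filtering and TMM scaling, within 5.33e-15.

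Counts were rounded, filtered by group with filterByExpr and TMM-scaled, leaving 16899 genes, and tested in edgeR 4.0.16 (R 4.3.3) with a robust quasi-likelihood fit, 1 term per group and 12 residual degrees of freedom. A gene was called where its p, adjusted by Benjamini-Hochberg, was under 0.05. The edgeR SE of a log2 difference is its size divided by the square root of the F statistic of this fit. Identifiers were named with GENCODE M21. Totals of 28.64 to 29.96 M make 1 CPM about 29 counts; PCR copies are not separate molecules. Members and lists were chosen with earlier results of these data known. Tests are given for the 5 members with the smallest p per arm at each day, the 3 with the smallest p per arm in the other comparisons, and 13 listed regulators and chaperones, with tests against control at both days. Alternatives covered scaling, filters, a replicate block, DESeq2 1.42.0, limma 3.58.1 and leaving out libraries. The edgeR step was tested on simulated data. The library pairs were checked for repeats, with a chi-square per gene of 4.34 to 42.3 over 120 pairs.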

Additional observations from a re-analysis of the deposited data

Results flagged for a closer look

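Of 156 groups of 4 libraries examined, 1 for each tested member and group, 8 held a library far from the other 3 by a gap test that chance passes in about 1 of 20 groups. In Dnmt3a2 at 1 day, replicate 1 stood high for Pdia3 at 184.3 CPM and for Dnajb9 at 46.69 CPM, and replicate 4 stood high for Hspe1 at 34.42 CPM and for Atf4 at 92.2 CPM. In control at 1 day, Bag3 was low in replicate 3 at 11.75 CPM and Hspa5 was low in replicate 4 at 96.59 CPM. In Dnmt3a2 at 5 days, Hspa5 was low in replicate 2 at 115.6 CPM and Pdia6 was low in replicate 3 at 53.23 CPM, within groups whose whole range was under 5 CPM.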

How the results depend on the processing

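No tested member was called under the 25 alternatives run for each comparison of 2 groups or the 24 run for the difference of effects; DESeq2 gave no adjusted p for 4 members for 5 days against 1 day in Dnmt3a2. The smallest adjusted p of a member among them was 0.0558, by DESeq2, for 5 days against 1 day in Dnmt3a2. Genes called at 1 day (15) were 34 with no low-count filter, 7 with only the groups compared and 59 with DESeq2, and 6 to 22 with 1 library left out. At 5 days (54) they were 94 with only the groups compared, 90 without the 2 choroid-rich libraries, 105 without the 3 interferon-rich libraries and 143 with DESeq2, and 22 to 82 with 1 library left out. For 5 days against 1 day in Dnmt3a2 (0) they were 6 with no filter, 44 with DESeq2 and 0 to 1 with 1 library left out, and for the difference of effects (0) 1 with DESeq2. Members at an unadjusted p under 0.05 were 7 to 26 at 1 day and 3 to 20 between days in Dnmt3a2 with 1 library left out, 7 and 3 with only the groups compared, 7 and 6 without the choroid-rich libraries and 5 and 5 without the interferon-rich libraries, the last 2 settings being chosen after seeing the data. The ER median at 5 days was 0.0237 and 0.0236 without the choroid-rich and the interferon-rich libraries and 0.0200 to 0.0658 with 1 library left out, the cytosolic median at 5 days 0.0036 to 0.05, and the ER median between days in control -0.0215 to 0.0051. Among 56 differences of single members followed through the alternatives, 5 near 0, of 4 members, turned direction. Ern1 at 1 day was -0.0038 with a replicate block, -0.1011 without the choroid-rich libraries, -0.0709 without the interferon-rich libraries, -0.0065 with limma-voom and -0.1011 to 0.0716 with 1 library left out. Atf4 at 1 day was 0.0073 without the choroid-rich libraries and -0.136 to 0.0073 with 1 left out. With 1 left out at 5 days, Ern1 was -0.0077 to 0.116, Hsf1 -0.0703 to 0.0154 and Ddit3 -0.136 to 0.0465. The causes were not tested. Same-numbered libraries of different groups correlated between -0.086 and 0.38 over 24 pairs. Of the 16 libraries, 6 correlated best with a library of their own number, so whether the numbers pair the libraries is not settled. A replicate block gave 17 genes called at 1 day and 65 at 5 days, and 0 members. Members at an unadjusted p under 0.05 were then 16 at 1 day and 12 between days in Dnmt3a2.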
